A study of Mus musculus with 12 samples.

Results

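The neutrophil-attracting chemokines and their receptors were followed in mouse back skin across an imiquimod (IMQ) model of psoriasis. The 6 genes, Cxcl1, Cxcl2, Cxcl3, Cxcl5, Cxcr1 and Cxcr2, were chosen by name. They are 4 of the mouse chemokines with the ELR motif and both of their receptors. All 6 were found among the 18505 genes of the expression table. RNA-seq was performed on the skin of 12 wild-type BALB/c mice, 4 in each of 3 groups, taken on day 10. The mice were males of 5 to 6 weeks, and all had their back hair shaved. The control group was given petroleum jelly, though its label names no agent. The IMQ + NS group received IMQ cream daily and was then covered with normal saline (NS). The IMQ + BZLF group received the same cream and was then covered with the Banzhilian formula (BZLF), a mixture of Chinese medicinal plants. The sources used here do not give the BZLF dose of the sequenced animals. The control animals differed from the other groups in the cream and in the wet cover, so these cannot be told apart in a comparison with controls.

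Chemokines are small secreted proteins that guide white blood cells along a gradient. Those with an ELR motif (glutamate, leucine, arginine) before the first cysteines draw neutrophils out of the blood through the G protein-coupled receptors CXCR2 and CXCR1. In skin they are produced by keratinocytes, fibroblasts, macrophages and neutrophils themselves after IL-17, IL-1 or TNF signals, and neutrophils collect under the stratum corneum of psoriatic lesions. Imiquimod is a ligand of Toll-like receptor 7 that produces a psoriasis-like inflammation when it is spread on mouse skin.

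The 4 ligand genes lie together on chromosome 5 of the mouse genome (build GRCm38), between positions 90759360 and 90905938, a span of 147 kb. In that cluster Cxcl5 occupies 90759360 to 90761624, Cxcl3 90786103 to 90789600, Cxcl1 90891241 to 90893115 and Cxcl2 90903871 to 90905938, all on the plus strand. The receptor genes lie within 40.6 kb of each other on chromosome 1, Cxcr2 at 74153989 to 74161246 on the plus strand and Cxcr1 at 74191785 to 74194631 on the minus strand. RefSeq promoter windows, which run from 250 bases before to 50 bases after a gene's start, were at hand for 5 of the 6 genes, Cxcl5 being the exception. The 120 bases before the RefSeq start of Cxcl1, Cxcl2 and Cxcl3 are shown because these neighbouring genes share a run of bases there. They were read from the plus strand of GRCm38.p6 at chr5:90891125-90891244, chr5:90903779-90903898 and chr5:90785981-90786100. Capitals mark GGGAATTTCCC, which at 11 letters was the longest run that all 3 share in the 250 bases before the start, and which has the form of a binding site of the transcription factor NF-kappa B.
Cxcl1: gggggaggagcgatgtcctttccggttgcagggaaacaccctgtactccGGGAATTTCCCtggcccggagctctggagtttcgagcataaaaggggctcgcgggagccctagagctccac
Cxcl2: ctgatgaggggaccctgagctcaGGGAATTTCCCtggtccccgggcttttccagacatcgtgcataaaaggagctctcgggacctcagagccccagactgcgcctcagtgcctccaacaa
Cxcl3: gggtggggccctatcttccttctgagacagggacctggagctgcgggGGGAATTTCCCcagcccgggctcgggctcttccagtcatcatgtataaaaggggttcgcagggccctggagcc

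The run begins 71 bases before the RefSeq start of Cxcl1, 97 bases before that of Cxcl2 and 73 bases before that of Cxcl3. The gene positions given above come from GENCODE, and the starts of both sources differ. The Cxcl2 stretch shown runs to 90903898, past the GENCODE start at 90903871. Its distance of 97 bases therefore depends on the source of the start. It was searched on both strands, and was chosen from these 3 sequences. Of 32851 promoter windows of the same length, 14 held it, or 0.0426%, and these include the 3 from which it was chosen. The windows of Cxcr1 and Cxcr2 did not hold these letters. The exact letters TATAAA of the TATA box were found in Cxcl3 alone among the 5 windows, 30 bases before the start, and in 13.6% of all windows. The stretches of Cxcl1 and Cxcl2 hold cataaa, which differs in the first letter only. In Cxcl2 it lies further from the RefSeq start than in Cxcl1, and further than TATAAA in Cxcl3. The AP-1 site TGACTCA was found in none of the 5 and in 5.20% of all windows. The match is a description of sequence and says nothing of binding in this tissue.

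Expression was measured as fragments per kilobase of transcript scaled to sequencing depth (FPKM), which corrects for gene length, so that levels can be compared between genes. The FPKM values could be traced back to whole numbers of reads for 18504 of 18505 genes, and the 12 libraries held from 38258231 to 40967094 reads. The chemokine and receptor genes had few of them, 0 to 1281 reads per gene and sample, and 1 read was worth at most 0.0274 FPKM for any of them. Counting intervals given below cover counting error only. The epidermal keratins Krt5 and Krt14 were at or above 405 FPKM in every sample, and the tissue therefore carried its defining markers. Control replicate 2 stood apart, with a median deviation of 0.358 (log2) from the other controls against 0.111 to 0.192 in the other 11 samples. Of the results on the 6 genes, each call was the same without it.

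Psoriasis-like lesions were first compared with normal skin. Cxcl2, Cxcl3, Cxcl5, Cxcr1 and Cxcr2 were higher in IMQ + NS than in control samples, whereas Cxcl1 changed less and was not called. A gene was called when limma's adjusted p over all 15288 tested genes was below 0.05 and the log2 fold change, on log2(FPKM + 0.1), was over 1 in size. By this rule 5 of the 6 genes were higher and 0 were lower, while 11.4% of all genes were higher and 11.0% lower. All 6 genes had every IMQ + NS sample above every control sample, which was true of 23.7% of all genes. The median log2 fold change was 4.0 over the 6 genes and 0.05 over all genes. Fold changes are understated on this scale for genes near 0. Cxcl3, Cxcl5 and Cxcr1 were kept for testing only because of their level in the IMQ + NS group, and the counts in this comparison were the same with no filter on low values.

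Cxcl2 (also known as MIP-2), a strong neutrophil attractant, was the most abundant of the 4 ligands in IMQ + NS skin. Its level was 0.139, 0.254, 0.708 and 0.262 FPKM in the control samples and 1.98, 3.91, 24.2 and 7.62 FPKM in the IMQ + NS samples. The groups did not overlap, and IMQ + NS replicate 3 stood far above the other 3. The means were 0.341 ± 0.251 and 9.43 ± 10.1 FPKM (SD, n = 4), with a log2 fold change of 3.99 (SE 0.71, limma adjusted p = 0.00156). Without IMQ + NS replicate 3 the ratio of the means was 13.2 in place of 27.7, and without control replicate 3 it was 43.2.

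Cxcl3, a near relative of Cxcl2, was all but absent from normal skin. In the control group 1 read was found over 4 samples, in replicate 2, where it gave 0.0246 FPKM. The IMQ + NS samples had 0.440, 1.23, 5.62 and 1.93 FPKM from 18, 48, 230 and 79 reads. Replicate 3 was again the highest and replicate 1 the lowest. The pooled reads differed by a ratio of 373 with a 95% counting interval from 66.5 to 14765, and the log2 fold change was 4.01 (SE 0.61, limma adjusted p = 6.87e-04). Without IMQ + NS replicate 3 the ratio of the mean levels was 196 in place of 376. Cxcl2 and Cxcl3 are similar genes, and 6.31% of the stretches of 50 bases in the Cxcl3 transcript also occur in that of Cxcl2, so a part of their reads could have been exchanged.

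Cxcl5 (also known as LIX), which is made by epithelial cells among others, had 0.0756, 0.0151, 0 and 0.124 FPKM in the control samples. In the IMQ + NS samples it had 1.37, 1.31, 6.34 and 6.79 FPKM. These split into a lower and a higher pair, and the higher pair included replicate 4, which was not the highest for Cxcl2 or Cxcl3. The log2 fold change was 4.41 (SE 0.59, limma adjusted p = 3.62e-04), and the ratio of the means was 73.5, or 131 without control replicate 4.

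Cxcl1 (also known as KC), which binds CXCR2 and is an early neutrophil attractant of mouse skin, was the main ligand of normal skin. It had 0.839, 0.550, 1.23 and 1.43 FPKM in the control samples and 1.67, 1.56, 1.87 and 2.48 FPKM in the IMQ + NS samples. The groups did not overlap, but the lowest IMQ + NS sample was close to the highest control. The means were 1.01 ± 0.394 and 1.90 ± 0.411 FPKM (SD, n = 4), with a log2 fold change of 0.90 (SE 0.28, limma adjusted p = 0.0230). The p-value passed its threshold and the fold change did not. Cxcl1 was called without control replicate 3, at 1.01, or control replicate 4, at 1.08, and was at 0.66 without control replicate 2.

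The receptors were both higher in IMQ + NS samples, at different levels. Cxcr2, the receptor shared by these ligands and carried by mature neutrophils, had 0.0962, 0.345, 0.369 and 0.396 FPKM in the control samples and 3.20, 5.45, 10.2 and 7.10 FPKM in the IMQ + NS samples. All 4 lesions lay far above the highest control, and the order of the lesions was that of Cxcl2. The log2 fold change was 4.01 (SE 0.40, limma adjusted p = 8.16e-05) and the ratio of the means 21.5. Cxcr1, the second receptor of this group, had 0 reads in all 4 control samples, which allows a mean of up to 0.0140 FPKM. In the IMQ + NS samples it had 0.257, 0.116, 0.625 and 0.313 FPKM from 14, 6, 34 and 17 reads. It was at least 23.5-fold higher than the 3 reads that the empty control group allows, with a limma adjusted p of 0.00145. The exact 95% counting interval of the ratio of pooled reads, which has no upper end here, begins lower, at 18.6. With 1 in place of 0.1 added to the FPKM its log2 fold change was 0.40, and it was not called.

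In bulk skin, more neutrophils and more RNA per neutrophil cannot be told apart. Of the 22 neutrophil marker genes, 16 were higher and 2 lower in IMQ + NS than in control samples, with a median log2 fold change of 2.87. Some of these markers, among them Ly6g, Cd177, Trem1 and Acod1, were kept for testing only because of their level in the IMQ + NS group. Among all genes 11.4% were higher and 11.0% lower. Ly6g, a surface protein of mouse neutrophils, went from 0.0135 ± 0.0156 to 0.856 ± 0.484 FPKM (SD, n = 4), and the granule protein genes Mmp8 and Ngp had log2 fold changes of 3.07 and 4.81. Mpo and Prtn3, enzymes of the early granules, were lower at -2.66 and -1.41. The summed level of the 22 genes was 66.2 to 150 FPKM in control and 3267 to 10156 FPKM in IMQ + NS samples, and most of it came from S100a8 and S100a9, which keratinocytes also make. Without these, Lcn2 and Il1f9, which are keratinocyte products as well, the sum was 30.8 to 95.6 FPKM in control and 76.5 to 129 FPKM in IMQ + NS samples, so the ranges overlapped. This smaller sum rested largely on few genes. In control samples these were Ly6c2 (21.9 ± 25.1 FPKM), which was not called, and Prtn3 (13.4 ± 3.91 FPKM). In IMQ + NS samples Padi4 was the largest, at 30.7 ± 4.89 FPKM. The part of neutrophil number in the levels of the chemokine and receptor genes was not tested.

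Other cell types also moved between these groups, in which 11.4% of all genes were called higher and 11.0% lower. Of 9 epidermal keratinocyte markers 6 were higher, and their sum was 2273 to 3465 FPKM in control and 5128 to 7944 FPKM in IMQ + NS samples. All 6 skeletal muscle markers were lower (3346 to 8220 against 619 to 1529 FPKM), as were 5 of 6 fibroblast markers (13084 to 18643 against 3681 to 4890 FPKM) and 4 of 6 adipocyte markers (2228 to 4458 against 1283 to 1874 FPKM). Of the macrophage markers 0 of 9 were higher and 1 was lower, of the 6 tested T cell markers none was called, of the mast cell markers 1 of 6 was higher and 2 were lower, and of the endothelial markers 0 of 6 were called, though their sum was 79.5 to 105 FPKM in control and 56.0 to 69.4 FPKM in IMQ + NS samples. Their part in the result was not tested.

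**Figure D1:**
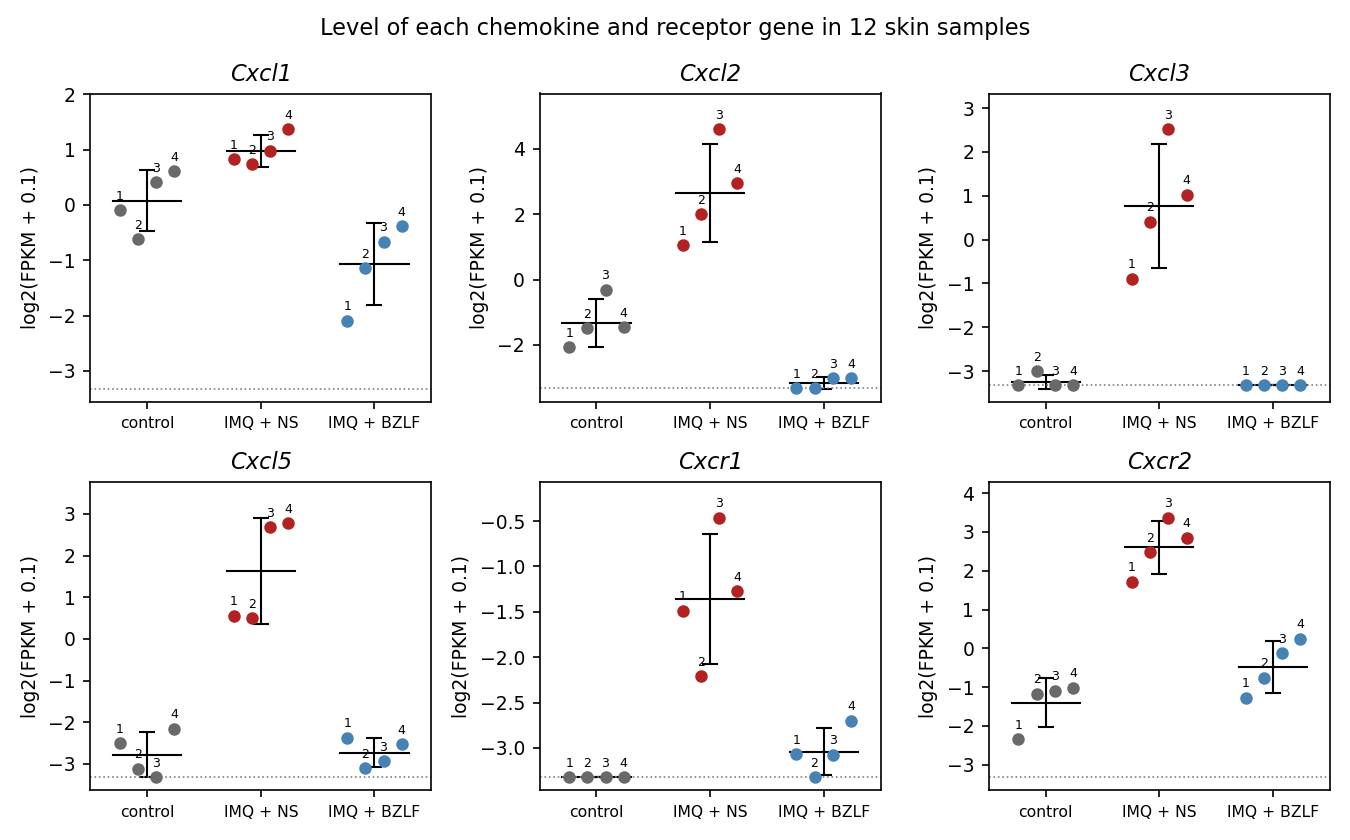
Level of the 6 genes in each of 12 samples as log2(FPKM + 0.1), one panel per gene, with points numbered by sample within control (grey), IMQ + NS (red) and IMQ + BZLF (blue). Black lines give the mean and 1 SD of 4 samples, and the dotted line marks 0 FPKM. In every panel the 4 IMQ + NS samples lie above all samples of the other groups.

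The effect of BZLF was then examined against the IMQ + NS group. All 6 genes were lower in IMQ + BZLF samples, with log2 fold changes from -1.68 to -5.82. Among all 15288 genes 2.20% were called lower and 0.321% higher. Cxcl3, Cxcl5 and Cxcr1 were again kept for testing only because of their level in the IMQ + NS group. With no filter on low values 6 were also called lower. The 4 IMQ + BZLF samples lay below the 4 IMQ + NS samples for all 6 genes, as they did for 10.9% of all genes. The median log2 fold change was -3.58 over the 6 genes and -0.02 over all genes. This comparison shares its IMQ + NS samples with the preceding one, and a high value in that group enters both. The exact permutation test (two-sided) gave p = 0.0286 for each gene in both comparisons, the smallest that 4 against 4 samples can give.

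The ligand Cxcl2 fell the most on the log2 scale. It had 0, 0, 0.0234 and 0.0225 FPKM in IMQ + BZLF samples, or 2 reads in all, against 1633 reads in the IMQ + NS group. Each of these samples was thus below the lowest control as well as below all lesions. The log2 fold change was -5.82 (SE 0.63, limma adjusted p = 0.00177), and the pooled reads differed by a ratio of 811 with a counting interval from 224 to 6700. The ratio of the means moved from 821 to 392 without IMQ + NS replicate 3 and to 1255 without IMQ + BZLF replicate 3.

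Cxcl3 had no read in any IMQ + BZLF sample, which allows a mean of up to 0.0187 FPKM. With 375 reads in the IMQ + NS group it was at least 124-fold lower than there, on the basis of 3 reads over the group (log2 fold change -4.09, SE 0.59, limma adjusted p = 0.00663). This limit was 64.3-fold without IMQ + NS replicate 3, which held 230 of the reads. The exact 95% counting interval of the pooled ratio begins at 100 with all samples. Cxcl5 had 0.0933, 0.0157, 0.0306 and 0.0737 FPKM from 6, 1, 2 and 5 reads. Its mean was 74.1 times lower than in the IMQ + NS group (log2 fold change -4.37, SE 0.55, limma adjusted p = 0.00387). Neither gene overlapped between the groups.

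The calls of these 3 ligands depended on the model. When the recovered reads were tested with limma voom, a choice made after seeing the data, the log2 fold changes were -8.25 for Cxcl2, -6.99 for Cxcl3 and -5.84 for Cxcl5, but the adjusted p-values were 0.161, 0.0535 and 0.0733. The voom test called the other 3 genes lower. With 1 in place of 0.1 added to the FPKM, Cxcl3 and Cxcr1 were not called (adjusted p = 0.0524 and 0.0698).

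Cxcl1 had 0.135, 0.354, 0.531 and 0.665 FPKM in the IMQ + BZLF samples. All of them were below the lowest IMQ + NS sample, at 1.56 FPKM. The means were 0.421 ± 0.229 and 1.90 ± 0.411 FPKM (SD, n = 4), with a log2 fold change of -2.05 (SE 0.34, limma adjusted p = 0.0108). With 5 to 26 reads, single samples were known loosely, and the counting interval of replicate 1 ran from 0.0438 to 0.315 FPKM.

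Cxcr2 remained the best measured of the 6 genes after BZLF. It had 0.314, 0.492, 0.820 and 1.09 FPKM, against 3.20 FPKM in the lowest IMQ + NS sample. The mean fell 9.57-fold (log2 fold change -3.08, SE 0.40, limma adjusted p = 0.00424). Cxcr1 had 0.0190, 0, 0.0187 and 0.0541 FPKM from 5 reads in all, with a log2 fold change of -1.68 (SE 0.35, limma adjusted p = 0.0260). The Cxcr1 call was lost without IMQ + NS replicate 3 (adjusted p = 0.0530) or 4 (0.0732), and without IMQ + BZLF replicate 2 (0.0759) or 3 (0.0640). Without IMQ + BZLF replicate 4, which held 3 of the 5 reads, the ratio of the means was 26.0 in place of 14.3.

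The neutrophil markers moved with these genes here as well, with 16 of 22 lower and 1 higher and a median log2 fold change of -2.48. The higher one was Mpo, at 1.0. Ly6g, Cd177, Trem1 and Acod1 again entered the test only through their level in the IMQ + NS group. Among all genes 2.20% were called lower and 0.321% higher. Ly6g was at 0.0275, 0.0556, 0 and 0.443 FPKM in the IMQ + BZLF samples, so that replicate 4 lay within the IMQ + NS range of 0.426 to 1.41 FPKM. The same replicate had the highest Cxcl1, Cxcr1 and Cxcr2 of its group. The sum of the markers without S100a8, S100a9, Lcn2 and Il1f9 was 58.3 to 66.0 FPKM in IMQ + BZLF samples, below the 76.5 to 129 FPKM of IMQ + NS samples. Its largest part in IMQ + BZLF samples was Padi4, at 37.7 ± 7.31 FPKM, which was not called (log2 fold change 0.29). None of the muscle, fibroblast, adipocyte, mast cell, T cell or endothelial markers tested was called between these groups, while 1 of 9 macrophage markers and 1 of 9 keratinocyte markers were lower. The summed levels of both lists nevertheless did not overlap between the groups. The keratinocyte markers summed to 5128 to 7944 FPKM in IMQ + NS and 2514 to 4063 FPKM in IMQ + BZLF samples, and the macrophage markers to 482 to 680 and 321 to 475 FPKM. Both cell types are among the producers of these chemokines. The part of cell numbers in the result was not tested.

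**Figure D2:**
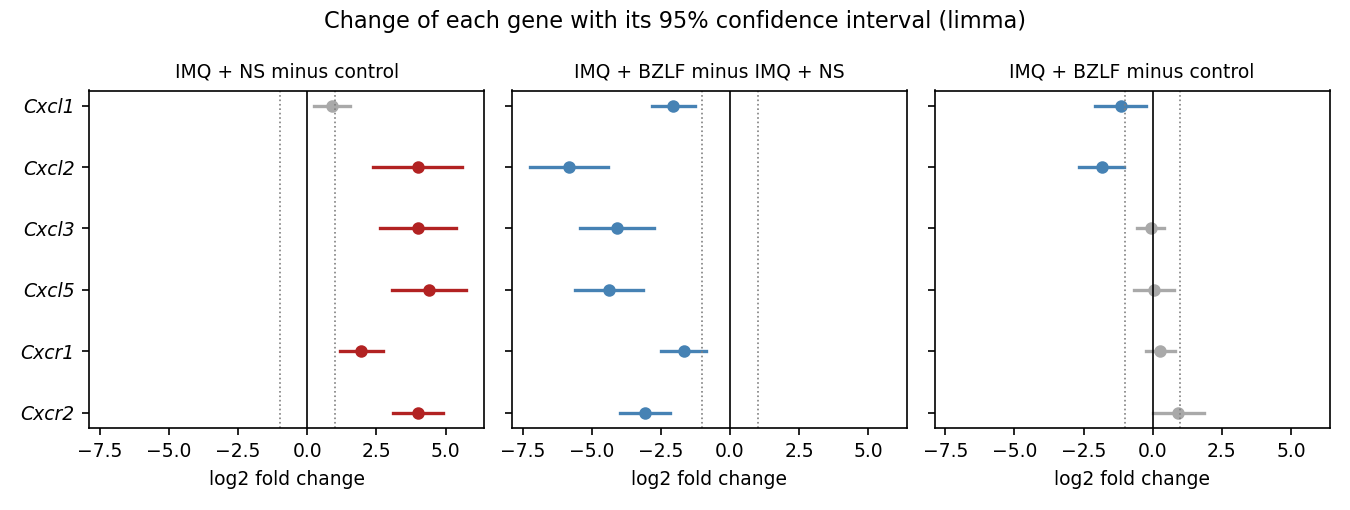
Log2 fold change of each gene (x axis, log2 units) in 3 comparisons, with its 95% confidence interval from limma. Red marks genes called higher, blue genes called lower, grey genes not called, and dotted lines the fold limit. In the middle panel all 6 genes are lower, from -1.68 for Cxcr1 to -5.82 for Cxcl2, while in the right panel Cxcl1 and Cxcl2 are the genes called.

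Lesions treated with BZLF were also compared with normal skin, using the same control samples as above. Of the 6 genes 2 were lower, Cxcl1 and Cxcl2, and 0 were higher, while 10.1% of all genes were lower and 9.65% higher. Cxcl2 was below every control sample, with 2 reads against 58, a ratio of 29.0 (counting interval 7.66 to 245) and a log2 fold change of -1.84 (SE 0.36, limma adjusted p = 0.00291, exact permutation p = 0.0286). Groups without overlap in this direction were seen for 28.1% of all genes. The ratio of the Cxcl2 means was 29.7, and 19.0 without control replicate 3 or 45.3 without IMQ + BZLF replicate 3. Cxcl1 was 2.40 times lower in the mean, with a log2 fold change of -1.15 (SE 0.41, limma adjusted p = 0.0401), and the groups overlapped (exact permutation p = 0.0571). When single samples were left out its call was lost for control replicates 1, 3 and 4 and IMQ + BZLF replicates 1 and 2, with adjusted p-values from 0.0696 to 0.104. With 1 in place of 0.1 added to the FPKM neither gene was called, at -0.50 and -0.39, and Cxcl1 was not called by voom (adjusted p = 0.0577) or with no filter (0.0635).

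Cxcr2 was not back at the control level by its mean, with 0.678 ± 0.344 against 0.301 ± 0.138 FPKM (SD, n = 4), but the test did not separate the groups. The log2 fold change was 0.93 with a 95% interval from 0.01 to 1.85 (limma adjusted p = 0.0823). Without IMQ + BZLF replicate 1, the lowest of its group, Cxcr2 was called higher at 1.20 (adjusted p = 0.0410). Cxcl5 had 14 reads in each group, and its difference of 0.04 lay in an interval from -0.69 to 0.77. Without control replicate 4 its control mean was 0.0302 FPKM, against 0.0533 FPKM in IMQ + BZLF samples. Cxcr1 had 5 reads against 0 and Cxcl3 0 against 1, so that a difference was not detectable at this depth. Between these groups the macrophage markers summed to 679 to 980 FPKM in control and 321 to 475 FPKM in IMQ + BZLF samples. The fibroblast markers summed to 13084 to 18643 FPKM in control and 4286 to 8109 FPKM in IMQ + BZLF samples. The sums of the muscle, adipocyte, endothelial, T cell and mast cell markers also lay below all control samples. Those of the keratinocyte and neutrophil markers overlapped with the controls. The part of these cell types in the result was not tested.

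The make-up of the 4 ligands differed between the groups in a way that their sum does not show. In control samples they summed to 0.844 to 1.94 FPKM, of which Cxcl1 made up 63.5 to 79.7%. In IMQ + NS samples the sum was 5.45 to 38.0 FPKM and Cxcl1 made up 4.93 to 30.6% of it. Cxcl2 was then the largest share in every lesion, at 36.3 to 63.6%, followed by Cxcl1 in replicates 1 and 2 and by Cxcl5 in replicates 3 and 4. After BZLF the sum was 0.228 to 0.761 FPKM, below all control samples, and Cxcl1 was again the largest share at 59.1 to 95.8%. The 40.9% of Cxcl5 in IMQ + BZLF replicate 1 rested on 6 reads. These shares are descriptions and were not tested. They also depend on the length assigned to each gene. The deposited values use 1083 bases for Cxcl2, whose longest coding transcript in GENCODE has 1859 bases. With the longest transcript of every gene, an alternative chosen after seeing the data, Cxcl2 was the largest share in 2 of 4 IMQ + NS samples, while Cxcl1 led in replicate 1 (35.5%) and Cxcl5 in replicate 4 (44.6%). Cxcl1 stayed the largest share in the 4 control and the 4 IMQ + BZLF samples.

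**Figure D3:**
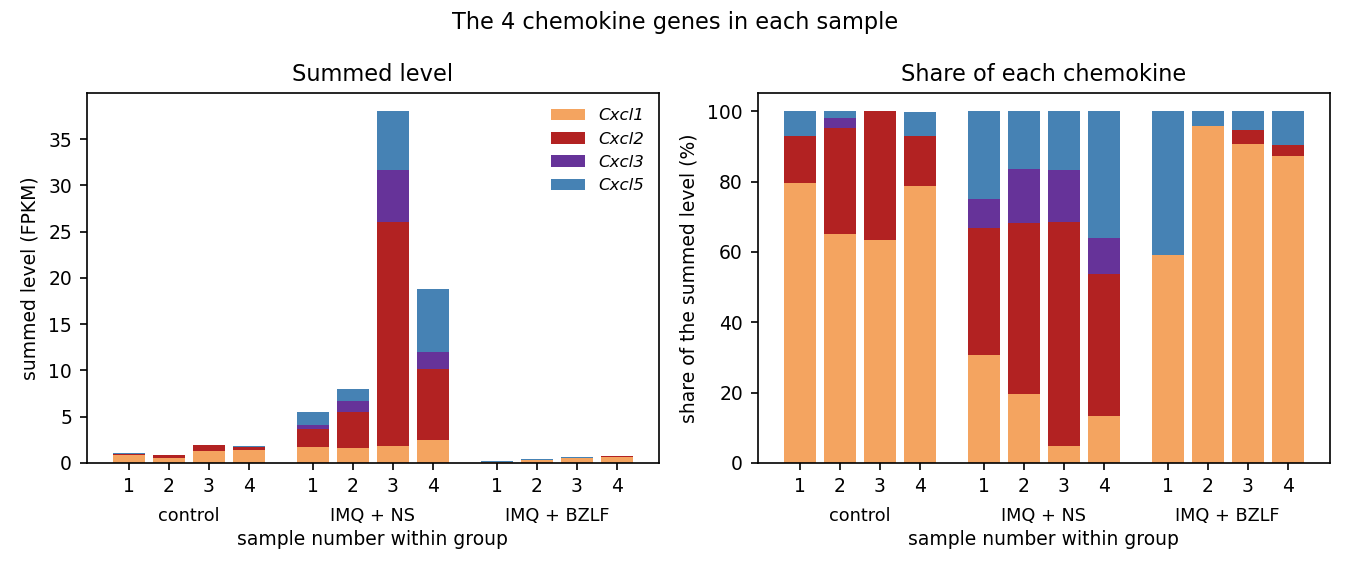
Stacked bars of the 4 ligand genes in each of 12 samples, as summed FPKM (left) and as percent of that sum (right), with sample numbers under each group. Cxcl1 is the largest share in all control and IMQ + BZLF samples, and Cxcl2, at its deposited length, in all IMQ + NS samples, where replicate 3 reaches a sum of 38.0 FPKM.

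Within a group, the order of the mean levels was as follows. In control skin it ran from Cxcl1 (1.01 FPKM) through Cxcl2 (0.341), Cxcr2 (0.301), Cxcl5 (0.0538) and Cxcl3 (0.00614) to Cxcr1 (0), and neighbours in this order overlapped in their sample ranges. In IMQ + NS skin it ran from Cxcl2 (9.43 FPKM) through Cxcr2 (6.49), Cxcl5 (3.95), Cxcl3 (2.31) and Cxcl1 (1.90) to Cxcr1 (0.328). There, of the neighbouring genes, Cxcl1 and Cxcr1 alone had ranges that did not overlap. In IMQ + BZLF skin Cxcr2 (0.678 FPKM) and Cxcl1 (0.421) overlapped with each other and lay above all samples of the remaining 4 genes. With the longest transcript of each gene, Cxcr2 rather than Cxcl2 came first in IMQ + NS skin (6.65 and 5.49 FPKM) and second in control skin (0.309 and 0.198 FPKM).

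Whether the genes changed by different amounts was tested for the 15 pairs, by an exact permutation test on the difference between both genes within a sample, adjusted over the 15 pairs. From IMQ + NS to IMQ + BZLF, 10 pairs had an adjusted p below 0.05. Cxcl2 fell further than each of the other 5 genes, by 3.78 relative to Cxcl1 and 1.46 relative to Cxcl5 on the log2 scale (exact permutation adjusted p = 0.0429 for each pair). Since genes at 0 cannot fall further than the added constant allows, constants of 0.01 and 1 were also used. With all 3 constants 5 pairs stayed below 0.05, which were Cxcl2 with Cxcl1, Cxcl5 and Cxcr1, and Cxcr1 with Cxcl3 and Cxcl5. No constant removes the limit set by the starting level. Cxcr1 began at 0.328 FPKM in IMQ + NS samples, against 9.43 for Cxcl2, 2.31 for Cxcl3 and 3.95 for Cxcl5, and ended at 5 reads. It could fall less than these genes at every constant, so its pairs cannot tell whether the genes responded differently. The difference between Cxcl2 and Cxcl3 did not hold with 0.01 (exact permutation adjusted p = 0.107), and that between Cxcl2 and Cxcr2 did not hold with 1 (exact permutation adjusted p = 0.107). Between control and IMQ + NS samples, 0 of 15 pairs had an adjusted p below 0.05 and 7 had the smallest unadjusted p of 0.0286 in the exact permutation test (adjusted 0.0612). Of these, 4 were pairs of Cxcl1 with Cxcl2, Cxcl3, Cxcl5 and Cxcr2, in which Cxcl1 changed less by 3.09 to 3.51. For IMQ + BZLF against control samples 0 of 15 pairs were below 0.05, and 7 had an unadjusted p of 0.0286 in the exact permutation test. With 7 pairs at the smallest p, the adjustment over 15 pairs cannot reach below 0.05. The counts of 0 therefore do not show that the genes changed equally.

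The genes upstream of the chemokines were read from a list of 27 cytokines, receptors and regulators in the table, of which 24 were tested. In IMQ + NS against control samples 8 of them were higher and 2 lower, and after BZLF 0 were higher and 8 lower. The median log2 fold changes were 0.52 and -0.48. Il17a and Il17f, which are in both sets of 8, were kept for testing only because of their level in the IMQ + NS group. Among all genes 11.4% were higher and 11.0% lower with IMQ, and 0.321% higher and 2.20% lower after BZLF. Il17a, the leading cytokine of the psoriatic IL-17 axis, had 0 reads in all control and all IMQ + BZLF samples and 0.573, 0.402, 1.08 and 0.809 FPKM in the IMQ + NS samples. Il17f had a similar course, with 1.32 FPKM in IMQ + NS replicate 4 as its highest value and log2 fold changes of 2.91 and -2.91. Il1b, which drives chemokine production through the IL-1 receptor, had means of 5.67, 28.5 and 2.07 FPKM in control, IMQ + NS and IMQ + BZLF samples. Its highest sample, at 55.1 FPKM, was IMQ + NS replicate 3, as for Cxcl2.

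The cytokine Tnf did not follow this pattern. It had means of 2.35 ± 0.828 FPKM in control, 1.66 ± 0.446 FPKM in IMQ + NS and 0.386 ± 0.215 FPKM in IMQ + BZLF samples (SD, n = 4). Its log2 fold change was -0.45 with IMQ (limma adjusted p = 0.187) and -1.93 from IMQ + NS to IMQ + BZLF (limma adjusted p = 0.0108). Of the IL-36 cytokines, Il1f8 (Il36b) and Il1f9 (Il36g) were higher with IMQ at 3.19 and 2.46, and lower after BZLF at -1.44 and -2.31. Il1a and the antagonist Il1rn were higher with IMQ, at 1.97 and 1.64, and had log2 fold changes of -0.30 and -0.52 after BZLF, which were not called.

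Among the regulators inside the cell, Nfkbiz, which encodes a nuclear partner of NF-kappa B that supports IL-17 target genes, was lower after BZLF (-1.53, limma adjusted p = 0.00134). It had a difference of 0.98 with IMQ, just under the limit. Zc3h12a encodes an RNase that degrades inflammatory transcripts, and was higher with IMQ (1.97) and lower after BZLF (-1.81). Zfp36, whose protein also destabilises such transcripts, and Cebpd were lower with IMQ, at -1.39 and -1.18. The NF-kappa B subunits Rela and Nfkb1 changed by at most 0.50 in size in either comparison and were not called. With 1 in place of 0.1 added to the FPKM, 5 genes of the list in place of 8 were lower after BZLF.

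Genes of neutrophil guidance and adhesion were read from a list of 21, all tested. With IMQ 7 were higher and 0 lower, and after BZLF 0 were higher and 10 lower, with median log2 fold changes of 0.59 and -0.92. The shares of all genes were 11.4% higher and 11.0% lower with IMQ, and 0.321% and 2.20% after BZLF. Csf3r, the receptor of the neutrophil growth factor G-CSF, had means of 2.88, 14.8 and 2.54 FPKM in control, IMQ + NS and IMQ + BZLF samples. The formyl peptide receptors Fpr1 and Fpr2, which guide neutrophils toward bacterial and mitochondrial peptides, were higher with IMQ at 2.94 and 2.30 and lower after BZLF at -1.91 and -2.92. The integrin genes Itgal and Itgam, which hold neutrophils to the vessel wall, were called in both comparisons. Itgb2, the partner chain of both integrins, had a difference of 0.94 with IMQ and was lower after BZLF at -1.72. The endothelial ligands Icam1, Icam2, Vcam1, Sele and Selp were not called in either comparison, and their log2 fold changes lay between -0.74 and 0.59.

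The other CXC chemokines and receptors were read from a list of which 12 were tested. Of these, 2 were higher and 2 lower with IMQ, and 0 were higher and 2 lower after BZLF, with medians of -0.03 and -0.26. The all-gene shares were 11.4% higher and 11.0% lower with IMQ, and 0.321% higher and 2.20% lower after BZLF. The summed level of the list was 315 to 375 FPKM in control and 280 to 385 FPKM in IMQ + NS samples, and at 228 to 273 FPKM in IMQ + BZLF samples it lay below both. Cxcl13, which attracts B cells, had means of 11.6, 67.6 and 12.9 FPKM in control, IMQ + NS and IMQ + BZLF samples, with log2 fold changes of 2.55 and -2.34. Cxcl16, a membrane-bound ligand of CXCR6, was lower after BZLF at -1.17. Cxcl14 was higher with IMQ at 1.31, and the platelet chemokine Pf4 and the scavenging receptor Ackr3 were lower at -1.64 and -1.59. Ppbp, another ELR chemokine, which comes mainly from platelets, had log2 fold changes of -0.15 and -0.60 and was not called. Cxcl9 and Cxcl10, which draw T cells through CXCR3, were not called in either comparison.

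**Figure D4:**
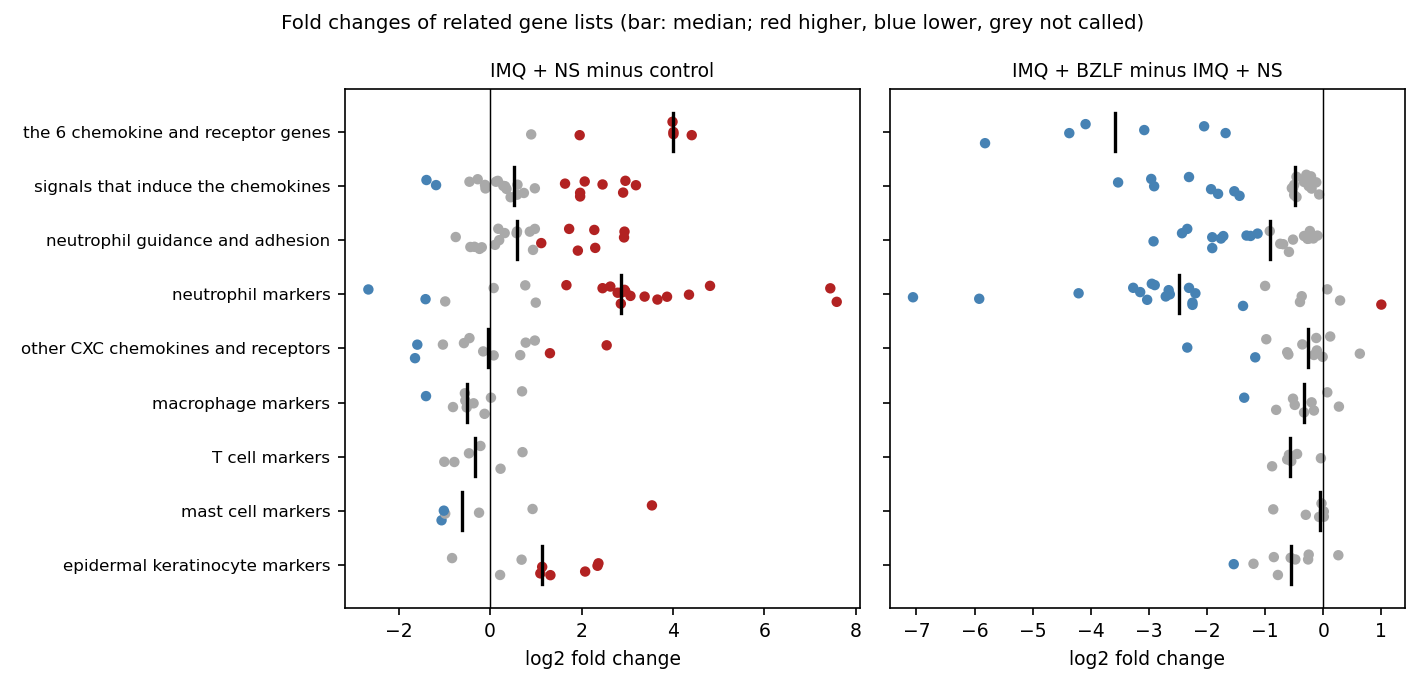
Log2 fold changes (x axis) of the genes of 9 lists in IMQ + NS against control (left) and IMQ + BZLF against IMQ + NS samples (right), one point per tested gene, with a black bar at the list's median and random vertical spread. Red points were called higher, blue points lower and grey points not called. The 6 chemokine and receptor genes have medians of 4.0 and -3.58, and the neutrophil markers 2.87 and -2.48.

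For each of the 6 genes the 3 genes with the most similar levels were sought among those with a mean of at least 1 FPKM, by Pearson's r of log2(FPKM + 0.1) over the 12 samples. These values are descriptions, and since the groups differ strongly a high r is shared by many genes. Cxcl1 was most like the immune signaling genes Pik3cg (r = 0.958), Sla (0.957) and Lcp2 (0.950). Cxcl2 was most like Il1b (0.979), followed by Pglyrp4 (0.972), which encodes a peptidoglycan recognition protein, and Slfn4 (0.967). Cxcl3 was most like Rps6ka4 (0.976), Tmem50b (0.973) and Gk (0.972). Cxcl5 was most like the myeloid kinase gene Fgr (0.957), S100a9 (0.952) and Chil3 (0.952). Cxcr1 was most like Tmem50b (0.958), Cxcl5 (0.952) and Nbeal2 (0.947). Cxcr2 was most like Sprr2i (0.982) and Sprr2e (0.975), which encode cornified envelope proteins of keratinocytes and belong to a family of similar genes, and Slc5a1 (0.975).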

How the data were processed

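Total RNA of mouse skin was sequenced in 12 samples, 4 per group. The authors deposited FPKM values per gene and sample, not on a log scale and not pooled. The study's methods name Bowtie2 and eXpress, whereas the submitters' processing notes name fastp, HISAT2, HTSeq, R 3.2.0 and the build mm10, and extraction reagent and library kit also differ between both sources. Tool versions beyond R 3.2.0 are not given in the sources used here. Whole reads were recovered from the FPKM values for 18504 of 18505 genes within 0.001 of a whole number, giving totals of 38258231 to 40967094 reads. Since the recovered reads are not the deposited unit, the main test stayed on FPKM.

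The 15288 genes with a mean of at least 0.1 FPKM over the 12 samples were tested on log2(FPKM + 0.1) with limma 3.58.1 in R 4.3.3 (moderated variances with a trend, the 2 compared groups only, Benjamini-Hochberg adjustment). The method was tested on simulated data with normal noise, in which only genes with a control mean above 0 on this log2 scale were changed. Genes with lower control levels, such as Cxcl2, Cxcl3, Cxcl5, Cxcr1 and Cxcr2, were not covered by that simulation. Single genes and pairs were compared by two-sided exact permutation tests in Python 3.11.15 with SciPy 1.17.1, and figures drawn with matplotlib 3.10.9. Poisson and Clopper-Pearson intervals (95%) and floors of 3 reads cover counting error only. That samples came from separate mice rests on the study's methods. The members and lists were chosen with earlier results of these data known. Named genes are the 6 members, genes of hand-written lists, and the 3 most similar genes per member. The values of 1 list gene are not reported here. The lists cover inducing signals, neutrophil guidance and adhesion, other CXC genes, and markers of neutrophils, macrophages, T cells, mast cells, keratinocytes, fibroblasts, endothelium, muscle and adipocytes. Gene positions come from GENCODE and promoters from RefSeq, both on GRCm38.

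Alternatives were constants of 0.01 and 1, no filter or a mean of at least 1 FPKM, 3 rescalings, 1 fit of all 12 samples, no trend, robust moderation, a replicate block, an unadjusted p, no fold limit and leaving out each sample. Voom on the recovered reads, other constants in the permutation tests, the longest coding transcript as gene length, and folds against empty groups without single samples were added after seeing the data.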

Additional observations from a re-analysis of the deposited data

Results flagged for a closer look

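Of the 16 sets of 4 samples in which the 6 genes varied, 1 held a sample far from the others by Dixon's ratio, and chance alone marks about 1 group in 20. This was Cxcl3 in the control group, where replicate 2 had 0.0246 FPKM from 1 read and the other 3 samples had none.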

How the results depend on the processing

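In IMQ + NS against control samples, 5 genes were called higher, 3 with a mean filter of 1 FPKM, which left 4 of the 6 genes to test, and 5 to 6 without single samples. In IMQ + BZLF against IMQ + NS samples, 6 were called lower, 3 with voom on the recovered reads, and 5 to 6 without single samples. Against control, 2 were called lower, 0 with a constant of 1, 1 with no filter, 1 with voom, and 1 to 2 without single samples, while 0 to 1 were higher without single samples. Pairs of genes below 0.05 between control and IMQ + NS samples numbered 9 with a constant of 1, against 0 with the constant of 0.1. For pairs at the smallest exact permutation p of 0.0286, the adjusted p depends on how many pairs share it. It was 0.0612 with the constant of 0.1 and 0.0476 with 1, so the count moved in a single step. Cxcl5, which was not called in IMQ + BZLF against control samples, turned from 0.04 to -0.15 with quantile normalization, and lay between -0.14 and 0.25 without single samples, below 0 without control replicate 2 (-0.07) or 3 (-0.14) or IMQ + BZLF replicate 1 (-0.08) or 4 (-0.03). Rescaling to equal sums moved the median of all genes from 0.053 to -0.073 in IMQ + NS against control samples, and the calls of the 6 genes were the same. With the longest coding transcript as gene length, Cxcl2 was the largest ligand share in 2 in place of 4 IMQ + NS samples.

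Samples with the same number did not deviate together (correlations from -0.15 to 0.26), so the numbers were not taken as pairs. With the replicate block, 5 genes were higher, 6 lower and 2 lower in these comparisons, the same counts as without it. An exact permutation test without 1 sample cannot fall below 0.05 and was not run. Genes with fewer than 10 reads in a group allow no statement on small differences. These were Cxcl2, Cxcl3 and Cxcr1 after BZLF, and Cxcl3 and Cxcr1 in control samples.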

Other observations

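Some neutrophil-related signals were too low to be tested. Csf3, which encodes the growth factor G-CSF, had 12 reads in each of IMQ + NS replicates 3 and 4, the samples with the highest Cxcl2, Cxcl5 and Cxcr2, and 0 reads in replicates 1 and 2 and in all control samples. After BZLF it had 1, 0, 2 and 1 reads. Il17c, an IL-17 cytokine of epithelial cells, had means of 0.0221 ± 0.0332, 0.175 ± 0.175 and 0.0132 ± 0.0170 FPKM (SD, n = 4) in control, IMQ + NS and IMQ + BZLF samples. Cxcl15, a further ELR chemokine known from lung, had 1 read in all 12 samples.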
